A study of Mus musculus with 141 samples.

Results

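Sorted basophil/mast cell progenitors (BMCP) were divided by their transcript level of Gata1, and the cells on either side were compared gene by gene. Of 94 BMCP in a set of 141 single mouse bone marrow cells, 89 passed the limits on library quality. Gata1-positive BMCP were the 24 kept cells with at least 50 CPM of Gata1 (counts per 1000000 counts in nuclear-encoded genes), and Gata1-low BMCP were the 49 with under 10 CPM. The 16 kept cells between the limits were left out, so the comparison covers 73 cells. The cells were chosen by their Gata1 values, and its own difference is therefore a description and no result.

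All cells came from the bone marrow of 3 female C57BL/6 mice, and no genotype other than the strain is given. BMCP were sorted as viable, lineage-negative, Kit-positive, Sca1-negative cells with high surface integrin beta7 and high CD16/32. The 47 granulocyte/monocyte progenitors (GMP) of the series, from the same 3 mice, shared the first of these gates, were CD34-positive and CD16/32-high, and lay outside the BMCP gate. They served for a side-by-side look at the same Gata1 limits. Each library is 1 cell, and no label links a cell to its mouse, so each side counts as 1 sample. No test across cells was made. Summed values carry exact Poisson limits for counting error only. Shares carry exact Clopper-Pearson limits, which take the cells as independent draws. Both are at 95%, and neither covers differences between mice.

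GATA1 is a zinc finger transcription factor that binds GATA letters in DNA together with partners such as TAL1, LMO2, LDB1 and FOG1. It drives erythroid and megakaryocyte differentiation and is also used by mast cells, basophils and eosinophils. GATA2 is its close relative, acts earlier in progenitors, and is replaced by GATA1 at many sites as erythroid cells mature.

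Gata1 (ENSMUSG00000031162, GRCm38 chromosome X, 7959260 to 7978071, minus strand) stood at 52.7 CPM in the lowest, 525 CPM in the median and 2145 CPM in the highest Gata1-positive cell. Among Gata1-low cells the lowest, median and highest values were 0, 0.414 and 7.76 CPM, and 24 of the 49 cells had no Gata1 read. The cells nearest to the limits held 7.76 and 10.6 CPM around the lower limit and 49.3 and 52.7 CPM around the upper limit. The second lowest Gata1-positive cell was at 107.5 CPM. The levels thus ran on through the limits, which cut a continuous range.

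**Figure D1:**
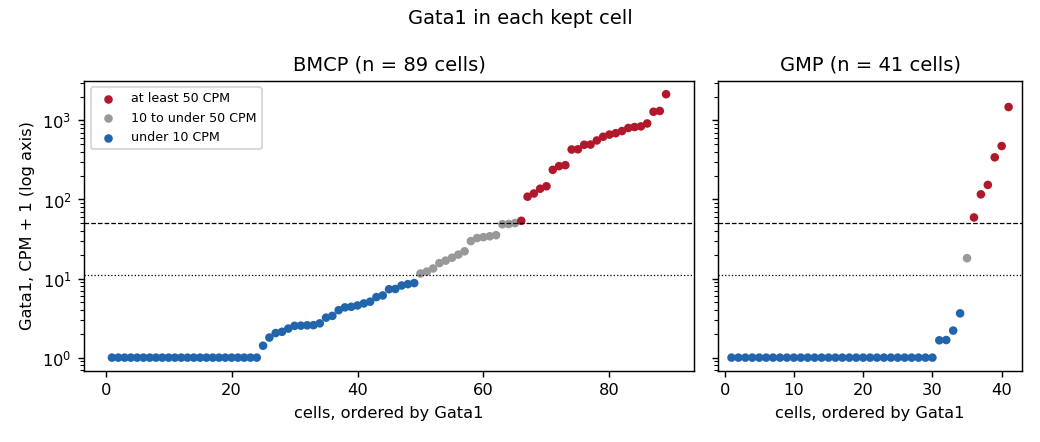
Gata1 in every kept cell, as CPM + 1 on a log axis, with cells ordered by level along the x axis; the dashed line marks 50 CPM and the dotted line 10 CPM. In BMCP, 24 cells lie at or over the upper limit and 49 under the lower one, and in GMP the numbers are 6 and 34.

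The libraries of the sides were of like size and quality, with overlapping ranges. Gata1-positive cells had a median of 950226 counts in nuclear-encoded genes (193015 to 1527680), and Gata1-low cells a median of 752748 (96129 to 2416630). The medians of genes with a count were 5506 and 5255, and the medians of the share of mitochondrial reads were 4.65% and 4.48%. Reads of spike-in RNA, added in equal amount to each reaction, made up a median of 10.7% in Gata1-positive and 12.9% in Gata1-low cells. Summed over each side there were 8.35 nuclear counts per spike-in count in Gata1-positive and 6.71 in Gata1-low cells. Both sides held cells from the lower and the upper number range of the labels, 12 numbered 1 to 47 and 12 numbered 48 to 94 in Gata1-positive, and 24 and 25 in Gata1-low. What these number ranges stand for is not given, and they were used as a technical split.

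The BMCP label was checked against marker genes on each side. All 5 mast cell markers were over 5 CPM on both sides, and 4 of 5 basophil markers were. Of the erythroid markers 4 of 9 in Gata1-positive and 5 of 9 in Gata1-low cells were over 5 CPM, and Slc4a1, the anion exchanger of red cells, had no read on either side. The megakaryocyte markers Pf4 and Gp9 had no read in Gata1-positive cells. The eosinophil granule genes Prg2, Prg3 and Ear1 had no read on either side. No monocyte and dendritic cell marker passed 5 CPM on either side.

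Promoter windows of 3 genes are printed as examples of a search for letters that GATA factors bind. They are RefSeq windows on GRCm38.p6, from 250 bases before to 50 after the annotated start, 5′ to 3′ on the gene's strand. Capitals mark the letters AGATAA or TGATAA, searched on both strands. The first is Gata1 itself (chrX:7967861-7968160, minus strand), the gene that chose the cells. The second is Cpa3, a mast cell carboxypeptidase gene with high levels on both sides (chr3:20242132-20242431, minus strand). The last is Zmynd11, the second of the genes named by rule as higher in Gata1-positive cells (chr13:9765272-9765571, minus strand). Of its 4 windows, the first that held such letters is printed. Zfp944, the first gene named by that rule, had no window with them.
Gata1: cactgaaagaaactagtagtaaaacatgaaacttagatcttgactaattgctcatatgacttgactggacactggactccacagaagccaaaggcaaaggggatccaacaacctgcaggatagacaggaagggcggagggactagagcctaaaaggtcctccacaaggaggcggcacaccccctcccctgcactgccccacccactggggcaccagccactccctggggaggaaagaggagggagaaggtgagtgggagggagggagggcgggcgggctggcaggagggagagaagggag
Cpa3: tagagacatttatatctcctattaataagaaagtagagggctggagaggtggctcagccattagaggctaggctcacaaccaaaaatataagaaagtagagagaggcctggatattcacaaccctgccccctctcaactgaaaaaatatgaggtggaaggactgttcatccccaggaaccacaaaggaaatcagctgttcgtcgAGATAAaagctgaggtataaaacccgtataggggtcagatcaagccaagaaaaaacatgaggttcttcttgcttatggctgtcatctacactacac
Zmynd11: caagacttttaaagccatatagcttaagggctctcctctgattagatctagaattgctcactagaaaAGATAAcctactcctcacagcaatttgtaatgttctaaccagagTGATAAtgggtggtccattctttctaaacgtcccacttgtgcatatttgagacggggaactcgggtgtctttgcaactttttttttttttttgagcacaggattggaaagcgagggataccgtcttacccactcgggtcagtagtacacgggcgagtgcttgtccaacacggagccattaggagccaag
The Gata1 window held neither word, the Cpa3 window held 1 and the Zmynd11 window held 2. Over all 32851 windows, 18.6% held at least 1 of the words, and by gene 21% of 27025 symbols had a window with one. Among genes shared by basophils and mast cells, 5 of 13 matched genes had one, namely Cpa3, Slc18a2, Ms4a2, Fcer1a and Il1rl1. Among the 15 genes named by rule in each direction, 2 of 12 matched genes that were higher in Gata1-positive cells and 0 of 11 that were lower had one. A match is a description of letters and no evidence of binding.

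Most widely detected genes lay within 2-fold between Gata1-positive and Gata1-low BMCP, and the number past 2-fold moved with how wide detection was defined. Of 964 genes with at least 10 reads in at least 50% of the cells of both sides together, after thinning every cell to 200000 reads, 5 were higher by 2-fold or more in Gata1-positive cells (0.519%) and 6 were lower by as much (0.622%). Their log2 ratios, taken as log2 of summed CPM plus 1 in Gata1-positive over Gata1-low cells, had a median of -0.02 and ran from -0.66 to 0.62 between the 5th and the 95th percentile. This definition pools the sides, and Gata1-positive cells are 23 of the 71 thinned cells. A gene found only in them cannot reach 50%, so the definition itself limits how many higher genes can appear. With 50% of the cells of either side instead, 1333 genes passed, 47 were higher (3.53%) and 30 lower (2.25%), with a median of 0.02 and 5th and 95th percentiles of -0.71 and 0.90. That wider definition admits genes through the side where they are high. With the mean of the sides' shares at 50% or more, 1006 genes passed, 12 were higher (1.19%) and 4 lower (0.398%). Leaving out a single cell at a time gave 43 to 56 higher and 26 to 35 lower genes under the either-side definition. Under the pooled definition, which is the one used below, it gave 4 to 8 genes higher and 4 to 14 lower. A count moved by over 1.5 times without BMCP 7 (7 higher and 11 lower), BMCP 91 (5 and 10), BMCP 59 (8 and 14), BMCP 5 (8 and 6) and BMCP 72 (8 and 8).

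Over all 10662 genes with a mean of at least 5 CPM over the sides, 1793 were higher by 2-fold or more (16.8%) and 2093 lower (19.6%). Genes seen in fewer cells made up nearly all of these. Of the 9698 genes under the limit of 10 reads in 50% of the cells, 18.4% were higher and 21.5% lower. One cell held at least 30% of the higher side's counts in 1533 of the 1793 higher genes (85.5%) and in 1410 of the 2093 lower ones (67.4%). For none of the 10662 genes did the CPM of the cells of one side lie wholly above those of the other (0%). With spike-in counts as the total, the median log2 ratio of all genes moved from -0.02 to 0.30, and 61.6% of the called genes were higher in place of 46.1%. Fewer cells with a transcript and less RNA per cell cannot be told apart in the summed values.

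The 2-fold differences seldom recurred between the number ranges. Among numbers 1 to 47, 2421 genes were higher by 2-fold or more (22.7%) and 2948 lower (27.6%). Of the 2421, 551 were also higher among numbers 48 to 94 (22.8%), where 19.9% of all genes were. A larger number, 792 (32.7%), were at least 2-fold lower there, where 27.2% of all genes were. Of the 2948, 959 were lower again (32.5%) and 652 were higher (22.1%). Among the 964 widely detected genes, 42 were higher and 66 lower among numbers 1 to 47, and 23 (2.39%) and 41 (4.25%) among numbers 48 to 94. In both ranges 2 were higher and 2 lower, which is 4.76% of the 42 and 3.03% of the 66 and so close to the shares of all widely detected genes.

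**Figure D2:**
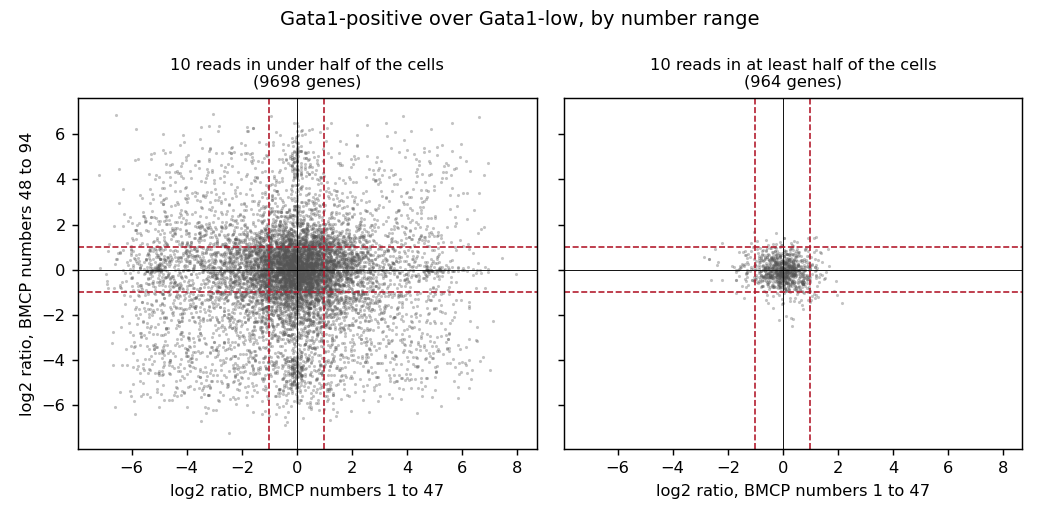
Log2 ratio of Gata1-positive over Gata1-low BMCP in cells numbered 1 to 47 (x axis) and 48 to 94 (y axis), with 1 point per gene and dashed lines at 2-fold; genes with 10 reads in under 50% of the cells are on the left and the 964 others on the right. The points on the left scatter over all 4 quadrants, and those on the right gather near 0.

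The 4 widely detected genes past 2-fold in both ranges were Asph, Gsk3b, Trim28 and Ywhab, which were singled out after their values were seen. As their number is near the background, their recurrence is no result, and the values serve as a description. Asph encodes aspartate beta-hydroxylase (chromosome 4, 9448069 to 9669344). Its lowest, median and highest CPM were 0, 268 and 2433 in Gata1-positive and 0, 53.5 and 935 in Gata1-low cells. Summed levels were 485 and 196 CPM, with a log2 ratio of 1.31 (1.19 and 1.43 in the lower and upper number range), and 18 of 23 against 26 of 48 thinned cells reached 10 reads. Gsk3b, a kinase that restrains Wnt signalling (chromosome 16, 38089001 to 38246084), had summed levels of 370 and 150.1 CPM and a log2 ratio of 1.30 (1.12 and 1.39). Its medians were 103 and 56 CPM, so the typical cells differed less than the sums. Trim28, a corepressor of KRAB zinc finger proteins (chromosome 7, 12999114 to 13031035), lay the other way at 151 and 380 CPM, with a log2 ratio of -1.32 and medians of 32.8 and 98.8 CPM. Ywhab, a 14-3-3 adaptor protein gene (chromosome 2, 163994960 to 164018588), stood at 227 and 551 CPM, with a log2 ratio of -1.27 and medians of 68.7 and 261 CPM. All 4 had cells at 0 on both sides, and the ranges overlapped. Leaving out any 1 cell kept Asph at 1.11 or more, Trim28 at -1.18 or less and Ywhab at -1.16 or less, while Gsk3b fell just under 2-fold, to 0.996, without BMCP 91.

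The other widely detected genes past 2-fold were Sf1 (213 and 90.8 CPM), Sat1 (311 and 148 CPM) and Ep400 (270.2 and 133 CPM) on the higher side. Thrap3 (85 and 197 CPM), Scp2 (47.9 and 98.2 CPM), Adamts10 (212 and 429 CPM) and R3hdm4 (107 and 216 CPM) were on the lower side. Leaving out a single cell brought each of these 7 under 2-fold. The log2 ratios became 0.94 for Sf1 without BMCP 52, 0.62 for Sat1 without BMCP 27 and 0.83 for Ep400 without BMCP 73. They became -0.82 for Thrap3 without BMCP 53, -0.87 for Scp2 without BMCP 49, -0.78 for Adamts10 without BMCP 75 and -0.89 for R3hdm4 without BMCP 61. Thrap3 went the other way among numbers 1 to 47, at a log2 ratio of 0.30 against -2.14 among numbers 48 to 94.

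GATA2 and most partners of the GATA complex were at like levels on both sides. Gata2 (chromosome 6, 88193891 to 88207032) stood at 404 CPM in the lowest, 1867 in the median and 5188 in the highest Gata1-positive cell, and at 203, 1634 and 5441 CPM in Gata1-low cells. The ranges overlapped almost fully, and no kept BMCP lacked Gata2. Summed levels were 1841 CPM (1823 to 1859) and 2024 CPM (2011 to 2038), a log2 ratio of -0.14, which was -0.02 and -0.18 in the number ranges. Of 21 genes of the GATA family and its partners, 19 passed the filter on low levels, 2 were higher by 2-fold or more and 2 lower. The median log2 ratio was -0.06 beside -0.02 for all genes. Over all genes 16.8% were higher and 19.6% lower, which is the background for this and each later list.

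Among the partners, the bridging factor Ldb1 stood at 105 CPM in Gata1-positive and 91 CPM in Gata1-low cells. Tal1, the basic helix-loop-helix partner, was at 134 and 147 CPM, with medians of 44.2 and 27.2 CPM. Lmo4, a LIM-only protein gene, was abundant in nearly every cell, at 2967 and 2781 CPM. Runx1 was at 689.9 and 899 CPM, but its log2 ratio was 0.46 in the lower and -1.25 in the upper number range. The corepressor gene Cbfa2t3 was at 351 and 286 CPM and the ETS factor gene Fli1 at 327 and 298 CPM. Each of these 6 genes stayed under 2-fold over all cells.

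The 4 partners past 2-fold were Gata3, Lmo2, Gfi1b and Gfi1. Gata3 was at 34.7 and 7.0 CPM, and without the highest cell of each side, BMCP 59 and BMCP 82, at 16.3 and 0.525 CPM. Lmo2 was at 61.4 and 21.3 CPM, with BMCP 40 holding 61.1% of the Gata1-positive counts, and at 24.2 and 2.81 CPM without the highest cells, BMCP 40 and BMCP 57. Without BMCP 40 alone the log2 ratio of Lmo2 was 0.18. Gfi1b, a repressor that GATA1 induces in erythroid cells, was at 18.8 and 67.5 CPM, and BMCP 84 held 98.8% of the Gata1-positive counts, without which the level was 0.240 CPM. It reached 10 reads in 1 of 23 Gata1-positive and 8 of 48 Gata1-low thinned cells. Its log2 ratio of -1.79 was -1.52 without BMCP 69 of the Gata1-low side. Zfpm1, which encodes the cofactor FOG1, was nearly silent at 0.276 and 2.16 CPM and failed the filter. Gfi1, a related repressor gene, was at 0.0459 CPM, a single read, and 21.2 CPM.

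Genes known as GATA1 targets in erythroid cells lay in both directions, as did genes at large. Of 20 genes that GATA1 is known to raise in erythroid cells, 11 passed the filter. Of these 2 were at least 2-fold higher and 4 lower, beside 16.8% and 19.6% of all genes, and the median log2 ratio was -0.33. Higher were Icam4, a red cell adhesion protein gene, at 122 and 53.4 CPM, and Samd14, whose Gata1-positive counts all came from BMCP 91. The log2 ratio of Icam4 was 1.18, and 0.87 without BMCP 80. Lower were Bcl2l1, Uros, Gfi1b and Btg2. Bcl2l1, which encodes the survival protein BCL-xL, was at 7.90 and 59.8 CPM, and without BMCP 78 the Gata1-positive level was 0.142 CPM. Its log2 ratio of -2.77 was -2.22 without BMCP 61 of the Gata1-low side. Of 12 genes that GATA1 is known to lower, all passed the filter, 2 were higher (Spi1 and Cebpa) and 0 lower, with a median of 0.14.

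Erythroid genes were present at low levels on both sides. Of 23, 10 passed the filter, 4 were at least 2-fold higher and 0 lower, with a median of 0.64. This count fell to 1 without BMCP 91, a Gata1-positive cell that held all Gata1-positive counts of the water channel gene Aqp1 and of Samd14. Klf1, the erythroid Krüppel-like factor gene, reached 50 CPM in 7 of 24 Gata1-positive cells (29.2%, 12.6 to 51.1%). In Gata1-low cells it did so in 6 of 49 (12.2%, 4.63 to 24.8%), and the difference was not tested. Its summed levels were 95.6 and 49.7 CPM, and 56.3 CPM in Gata1-positive cells without BMCP 91. Carbonic anhydrase 1, Car1, was at 50 CPM or more in 8 of 24 and 19 of 49 cells. Cells with and without either transcript were thus found on both sides.

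Of 15 heme synthesis and iron genes, 14 passed the filter, 2 were higher and 3 lower, with a median of -0.41. The median was -0.40 and -0.46 in the number ranges. In both ranges 1 member was higher and 2 were lower by 2-fold, beside 551 and 959 of all 10662 genes. Alas1, the housekeeping first enzyme of heme synthesis, was the member with the widest ratio. It was at 32.3 CPM (29.9 to 34.8) in Gata1-positive and 0.382 CPM (0.223 to 0.612) in Gata1-low cells, with a log2 ratio of 4.59. The transcripts sat in few cells: 4 of 23 Gata1-positive and 0 of 48 Gata1-low thinned cells reached 10 reads, and both medians were 0. Without BMCP 60, which held 55% of the counts, the Gata1-positive level was 14.9 CPM. Of 18 megakaryocyte genes, 7 passed the filter and 2 were higher, the platelet glycoprotein genes Gp1ba and Gp1bb. Gp1ba was at 103 and 3.73 CPM, but its log2 ratio was -3.05 in the lower number range. Gp1bb had the widest log2 ratio of the list, 5.48, and 1 member of the list was at least 2-fold higher in both number ranges. In both glycoprotein genes 1 cell held at least 30% of the Gata1-positive counts.

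**Figure D3:**
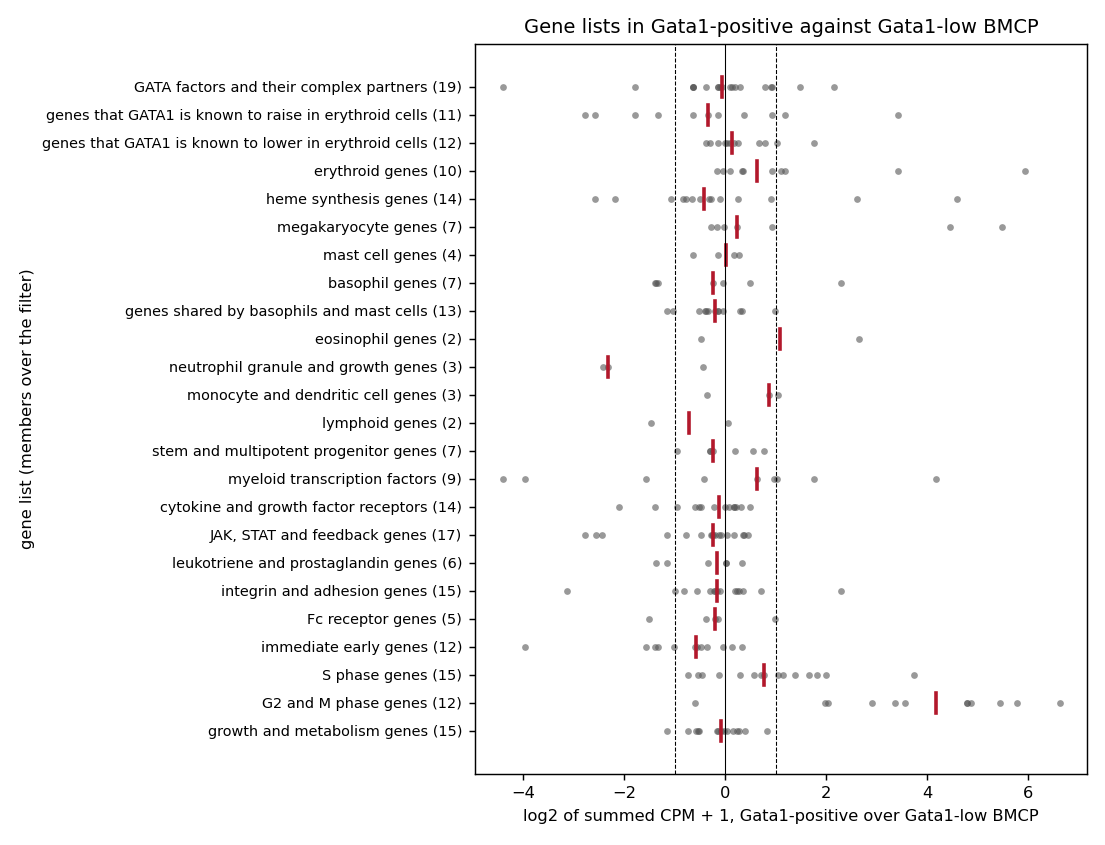
Log2 ratio of each list member over the filter (grey points) in Gata1-positive over Gata1-low BMCP, by list, with the median in red and dashed lines at 2-fold. Most medians lie within 2-fold of 0, and the G2 and M phase genes stand at 4.18, a value that drops to 1.42 without BMCP 29.

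Mast cell and basophil genes were shared by Gata1-positive and Gata1-low cells. Cpa3 stood at 791 CPM in the lowest, 2668 in the median and 30676 in the highest Gata1-positive cell, and at 94.0, 2094 and 24104 CPM in Gata1-low cells. Its summed levels were 6525 and 5302 CPM, and the log2 ratio of 0.30 was -1.15 in the lower and 1.18 in the upper number range. Gzmb, which encodes granzyme B, was at 283, 4813 and 17931 CPM in Gata1-positive and 161, 6391 and 16833 CPM in Gata1-low cells. Its sums were 5935 and 6568 CPM. Every kept BMCP on both sides therefore carried both granule genes. The ranges overlapped, though Cpa3 reached lower in Gata1-low cells, to 94.0 CPM against 791 CPM.

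Of 12 mast cell genes, 5 had no read on either side and 4 passed the filter. Of these 4, 0 were past 2-fold, with a median log2 ratio of 0.02. This median was -0.68 among numbers 1 to 47, 0.31 among numbers 48 to 94 and -0.56 against Gata1-low cells without a Gata1 read. Kit, the receptor of stem cell factor and part of the sort, was at 1380.4 and 1217 CPM. Cma1, the gene of mast cell chymase, was high in a minority of cells, reaching 50 CPM in 10 of 24 Gata1-positive (41.7%, 22.1 to 63.4%) and 12 of 49 Gata1-low cells (24.5%, 13.3 to 38.9%). Its summed levels of 1665 and 1383 CPM became 868 and 594 CPM without the highest cell of each side, BMCP 52 and BMCP 11. The log2 ratio of Cma1 was -1.10 among numbers 1 to 47 and 3.16 among numbers 48 to 94.

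Of 14 genes shared by basophils and mast cells, 13 passed the filter, 0 were higher and 2 lower, with a median of -0.20. Slc18a2, the vesicular monoamine transporter that loads histamine, was at 767 and 1005 CPM. The gene of the gamma chain of the IgE receptor, Fcer1g, was at 1213 and 1332 CPM, and Srgn, the core protein of granule proteoglycans, at 3527 and 4042 CPM. Ms4a2, which encodes the IgE receptor beta chain, was at 703 and 910.1 CPM, with log2 ratios of 1.03 and -1.35 in the number ranges. The lower members were Hpgds, the prostaglandin D synthase gene, at 52.2 and 117 CPM, and Hgf. In Gata1-positive cells Hpgds was at 17.3 CPM without BMCP 62, and its log2 ratio of -1.15 was -0.88 without BMCP 63.

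Of 9 basophil genes, 7 passed the filter, 1 was higher and 3 lower, with a median of -0.23. Mcpt8, the protease gene that marks basophils, was at 318 and 821 CPM, but with log2 ratios of -3.40 and 0.54 in the number ranges. Without BMCP 52, which held 71.9% of the Gata1-positive counts, that side was at 95.6 CPM, and without BMCP 11 on the Gata1-low side the log2 ratio was -0.92 in place of -1.36. By cells, 6 of 24 (25%, 9.77 to 46.7%) and 9 of 49 (18.4%, 8.76 to 32.0%) reached 50 CPM. Itga2, the gene of the basophil surface protein CD49b, was the higher member, at 37.4 and 6.84 CPM, and at 25.6 and 2.72 CPM without BMCP 25 and BMCP 51. It was past 2-fold in both number ranges, at 2.64 and 1.90, yet 4 of 23 and 3 of 48 thinned cells reached 10 reads. Il3ra, the alpha chain of the interleukin-3 receptor, was at 14 and 38 CPM, and at 8.53 CPM in Gata1-positive cells without BMCP 78. Its log2 ratio of -1.38 was -1.19 without BMCP 45 of the Gata1-low side.

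**Figure D4:**
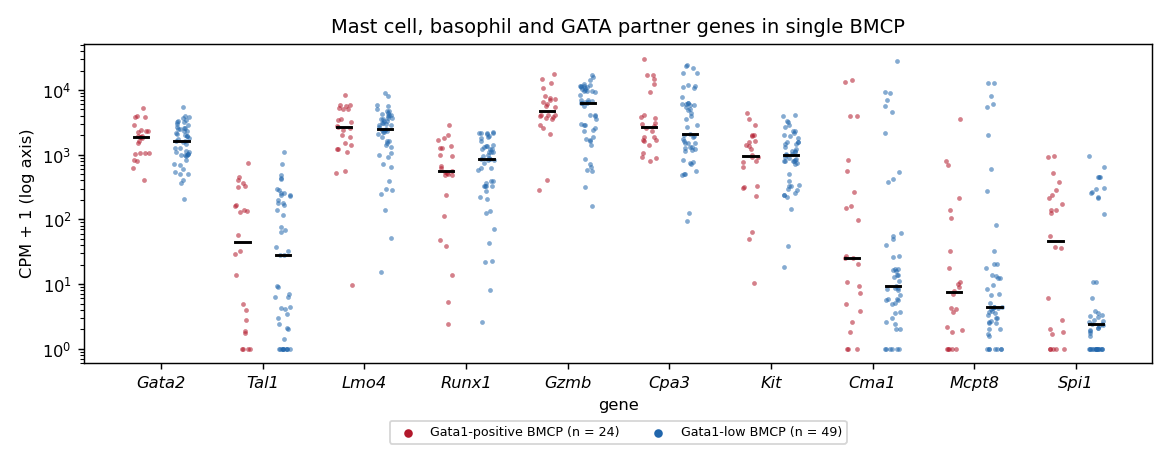
CPM + 1 on a log axis for 10 genes in each Gata1-positive (red, 24) and Gata1-low (blue, 49) BMCP, with 1 point per cell and a black bar at the median. The ranges of Gata2, Lmo4, Gzmb and Cpa3 overlap widely between the sides, with Cpa3 reaching lower in Gata1-low cells. Cma1 and Mcpt8 are high in few cells of either side, and the medians of Spi1 are 45.1 and 1.43 CPM.

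Spi1 was 1 of 3 list members past 2-fold on the higher side in which no cell held 30% or more of the Gata1-positive counts, though its call did not outlast the loss of 1 cell. It encodes PU.1, a myeloid transcription factor known to oppose GATA1 in erythroid cells. Its lowest, median and highest values were 0, 45.1 and 969 CPM in Gata1-positive and 0, 1.43 and 961 CPM in Gata1-low cells, with overlapping ranges. Summed levels were 167 CPM (162 to 173) and 81.7 CPM (79 to 84.4), a log2 ratio of 1.02 that was 0.62 and 1.29 in the number ranges. At least 50 CPM was found in 12 of 24 Gata1-positive cells (50.0%, 29.1 to 70.9%) and 12 of 49 Gata1-low cells (24.5%, 13.3 to 38.9%). In the cells between the limits the median was 38.1 CPM. The call sits at the 2-fold line, and without BMCP 6 the ratio was 0.66.

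Over all lists together, 197 different members passed the filter. Of these 34 were higher (17.3%) and 27 lower (13.7%), beside 16.8% and 19.6% of all genes. In 31 of the 34 higher members 1 cell held at least 30% of the Gata1-positive counts, the exceptions being Spi1, Icam4 and Mcm7. In 17 of the 27 lower members 1 cell held at least 30% of the Gata1-low counts.

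Other myeloid and lineage lists had few members over the filter. Of 15 myeloid transcription factor genes, 9 passed, 3 were higher (Spi1, Cebpa, Id3) and 3 lower (Gfi1, Egr1, Egr2). Cebpa, a driver of granulocyte fate, was at 40.5 and 11.2 CPM, and at 18.3 and 0.987 CPM without BMCP 27 and BMCP 71. Without BMCP 27 alone its log2 ratio was 0.66. Of 15 neutrophil genes, 3 passed and 2 were lower, Prtn3 and Ctsg, but 0 were lower by 2-fold in both number ranges. Without BMCP 75, a Gata1-low cell, 2 passed and 1 was lower. Without BMCP 88, a Gata1-positive cell, 3 were lower. Of 11 eosinophil genes, 2 passed, and the chemokine receptor gene Ccr3 was higher, at 62.3 and 9.0 CPM. Ccr3 reached 10 reads in 3 of 23 and 2 of 48 thinned cells, and was at 43.1 and 0.713 CPM without BMCP 7 and BMCP 26. Of 13 stem and multipotent progenitor genes, 7 passed and 0 were past 2-fold. Monocyte and dendritic cell genes (1 higher of 3) and lymphoid genes (1 lower of 2) gave H2-Ab1 and Cd79b, with 1 cell holding nearly all Gata1-positive counts of each. Without BMCP 45, a Gata1-low cell, 0 lymphoid genes were lower.

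Among 22 cytokine and growth factor receptor genes, 14 passed the filter, 0 were higher and 2 lower, with a median of -0.11. The shared receptor chains were near level, Il2rg at 968 and 837 CPM and Csf2rb at 408 and 478 CPM. Reads of Csf2rb may be shared with its close copy Csf2rb2. Of 19 genes of the JAK and STAT pathway with its targets, 17 passed, 0 were higher and 4 lower, namely Stat5b, Pim1, Pim2 and Bcl2l1. Stat5b, a signal transducer of interleukin-3 and Kit, was at 104 and 231 CPM, and at 69 CPM in Gata1-positive cells without BMCP 80. Its log2 ratio of -1.15 was -1.01, near the 2-fold line, without BMCP 18 of the Gata1-low side. Pim1, a STAT5-induced kinase gene, was at 1.10 and 10.3 CPM with log2 ratios of -2.46 and -2.55 in the number ranges, and reached 10 reads in 0 of 23 and 4 of 48 thinned cells. Pim2 was at 5.19 and 35.2 CPM, and BMCP 90 held 92% of the Gata1-positive counts, without which the level was 0.427 CPM. Its log2 ratio of -2.55 was -2.22 without BMCP 41 of the Gata1-low side.

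Of 17 integrin and adhesion genes, 15 passed, 1 was higher (Itga2) and 1 lower. Itgb7, the gene of the integrin chain used for the sort, was at 1236 and 1317 CPM. The lower gene was Itga5, the fibronectin receptor alpha chain, at 4.64 and 48.5 CPM, past 2-fold in both number ranges and at 10 reads in 0 of 23 and 7 of 48 thinned cells. Without BMCP 73 and BMCP 63, Itga5 was at 2.10 and 33.6 CPM. Of 10 leukotriene and prostaglandin genes, 6 passed and 2 were lower, and of 7 Fc receptor genes 5 passed and 1 was lower. Of 14 immediate early genes, 12 passed, 0 were higher and 5 lower, with a median of -0.57 that was 0.32 and -1.31 in the number ranges. Egr1, an early growth response factor gene, was at 129 and 386 CPM, while Fos, its companion in the response, was at 1271 and 1156 CPM.

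Proliferation genes were higher in Gata1-positive BMCP in sum, and this rested on 1 or a few cells. Of 15 G2 and M phase genes, 12 passed the filter and 11 were at least 2-fold higher, with a median of 4.18 that was 4.70 among numbers 1 to 47 and 0.06 among numbers 48 to 94. BMCP 29, a Gata1-positive cell with 236 CPM of Gata1, held 88.6% of the Gata1-positive counts of the proliferation marker Mki67. Without BMCP 29, 6 members passed, 3 were higher and 1 lower, with a median of 1.42. At least 50 CPM of Mki67 was found in 3 of 24 Gata1-positive cells (12.5%, 2.66 to 32.4%) and in 0 of 49 Gata1-low cells, whose limit reaches 7.25%. A further cell of this kind, BMCP 44, had 11.2 CPM of Gata1 and lay between the limits. Of 15 S phase genes, 7 were higher and 0 lower, with a median of 0.78 that was -0.49 and 1.34 in the number ranges. Without BMCP 62, 12 passed, 2 were higher and 4 lower, with a median of -0.20. In both number ranges 4 G2 and M phase and 3 S phase genes were at least 2-fold higher, beside 551 of all 10662 genes. In each list 0 were lower in both ranges, beside 959 of all genes. The 2 Gata1-positive cells highest in summed G2 and M phase genes, BMCP 29 and BMCP 62 (10505 and 1856 CPM), lie in different ranges.

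Mcm7, a subunit of the replicative helicase, was spread over more cells. It was at 212 and 101 CPM, with medians of 115 and 2.37 CPM, and at 10 reads in 13 of 23 and 16 of 48 thinned cells. Its log2 ratio of 1.06 was 1.57 and 0.94 in the number ranges, and 0.86 without BMCP 73. Of 15 growth and metabolism genes, 15 passed, 0 were higher and 1 lower, with a median of -0.08.

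Genes outside the lists were named by a rule of size: the 15 widest ratios either way. A gene qualified with 20 CPM or more on its higher side, at least 2 thinned reads in 40% or more of the cells there, and less than 30% of the counts in any 1 cell. It also had to point the same way by 1.5-fold in the mean of cells and in both number ranges. This left 95 genes on the higher and 85 on the lower side. These are the widest of many ratios, and the values below describe this choice. Among those higher in Gata1-positive cells were Zfp944, Zmynd11, Cep85, Uchl3, AI506816, Atxn7, Asna1, Nubp2, Tomm70a, Hdac1, Qsox1, Anxa7, Ndufaf4 and Rnf2. Their log2 ratios ran from 5.12 for Zfp944 to 1.86 for Rnf2. They include the mitochondrial import receptor gene Tomm70a and the chromatin regulators Zmynd11, Atxn7, Hdac1 and Rnf2. No share of chromatin regulators over all genes was taken, so their number here is no result. The corepressor gene Trim28, described above, lay the other way at a log2 ratio of -1.32.

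Rnf2 encodes the ubiquitin ligase of Polycomb complex PRC1 (chromosome 1, 151458004 to 151500955). It was found most widely of the 15, at 10 reads in 18 of 23 Gata1-positive and 12 of 48 Gata1-low thinned cells. Its lowest, median and highest values were 0, 451 and 1371 CPM against 0, 2.51 and 1073 CPM, with sums of 408 and 111 CPM and a log2 ratio of 1.86. Cells between the limits had a median of 11.3 CPM. Atxn7, a subunit of the SAGA deubiquitinase module (chromosome 14, 13961440 to 14107302), stood at 253 and 52 CPM, with medians of 235 and 2.85 CPM and 14 of 23 against 12 of 48 cells at 10 reads. Zmynd11, a reader of methylated histone H3.3 whose window is printed above (chromosome 13, 9684833 to 9765330), was at 175 and 12.7 CPM, with medians of 36.7 and 0 CPM and 11 of 23 against 5 of 48 cells. Hdac1, a histone deacetylase gene, was at 104 and 25.1 CPM. Leaving out any 1 cell kept the log2 ratio of Rnf2 at 1.75 or more, of Atxn7 at 2.06 or more and of Zmynd11 at 3.44 or more. The rule had already asked for detection in 40% of the cells and less than 30% of the counts in any 1 cell. These ratios and the wide detection follow in part from that choice and are no support.

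Zfp944 had the widest ratio of the rule, a log2 ratio of 5.12 from 188 and 4.43 CPM, and was found at 10 reads in 9 of 23 and 1 of 48 cells. Its medians were 2.27 and 0 CPM, beside highest values of 1040.4 and 146 CPM. Zfp944 belongs to a large zinc finger family, and how reads of close copies were assigned is not given, so its level is uncertain.

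The 15 genes lower in Gata1-positive cells were Exoc5, Ncoa3, Senp1, Exosc10, Nelfb, Map2k4, Ddx21, Exoc3, Rfesd, Susd1, Trim35, Adss, Psmc3, Slc25a51 and Bag3, with log2 ratios from -3.12 to -1.86. Exoc5 and Exoc3 are both subunits of the exocyst, which tethers secretory vesicles to the plasma membrane. Exoc5 was at 23.0 and 207 CPM, with 3 of 23 and 17 of 48 thinned cells at 10 reads, and at 10.7 CPM without BMCP 46. Exoc3 was at 26.1 and 124 CPM, and at 7.85 CPM without BMCP 29. Without a Gata1-low cell, the log2 ratio of Exoc5 was -2.99 (BMCP 14 left out) and that of Exoc3 -1.99 (BMCP 55 left out). Psmc3, an ATPase subunit of the proteasome, was at 50.6 and 195 CPM, with medians of 1.44 and 12.5 CPM and log2 ratios of -1.81 and -1.99 in the number ranges. Susd1, a sushi domain protein gene, was at 44.2 and 184 CPM, with medians of 22.6 and 61 CPM. All 30 genes had cells without a read on both sides, so their ranges overlapped.

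Genes next to Gata1 on chromosome X did not share one direction. Within 200 kb of the start of Gata1, 29 annotated genes were among the counted genes, and none of them overlaps Gata1. The start used is that of GENCODE, which differs from the RefSeq start of the window printed above. The log2 ratios of those over the filter ran from -3.63 for the pseudogene Gm9429 and -2.55 for Pim2 to 0.82 for Wdr13 and 1.15 for Slc35a2. Was, the Wiskott-Aldrich syndrome gene, was at 98.2 and 56.3 CPM, and the histone methyltransferase gene Suv39h1 at 9.46 and 40.1 CPM.

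The same Gata1 limits were then applied to the 41 kept GMP, of which 6 were at or over 50 CPM, 34 under 10 CPM and 1 between. Gata2 in the 6 cells was 166, 274, 619, 1582, 1789 and 2144 CPM. In the 34 cells under the lower limit its lowest, median and highest values were 0, 5.10 and 994 CPM. The ranges overlapped, but the medians were far apart, and the summed levels were 1154 and 111 CPM, a log2 ratio of 3.37. Cpa3 was 69.1, 2158, 2185, 2699, 3691 and 4706 CPM in the 6 cells, and had a median of 8.68 and a highest value of 4062 CPM in the 34. Ms4a2 was 0 in 1 of the 6 cells and 860.3 to 2312 CPM in the others, beside a median of 0.694 CPM.

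Neutrophil granule genes lay the other way in GMP. Mpo, which encodes myeloperoxidase, ran from 509 to 36158 CPM in the 6 cells and from 8093 to 68277 CPM in the 34, with sums of 11239 and 35583 CPM. Elane, the gene of neutrophil elastase, was at 428 and 8666 CPM. Among 2414 widely detected genes of GMP, 182 were higher (7.54%) and 363 lower (15%) by 2-fold, under a definition that here rests mainly on the 34 cells. In BMCP the log2 ratios of Gata2, Cpa3 and Ms4a2 were -0.14, 0.30 and -0.37, and in GMP 3.37, 2.70 and 6.70. The difference between these ratios was not tested. With 6 cells on one side a few cells set each value.

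**Figure D5:**
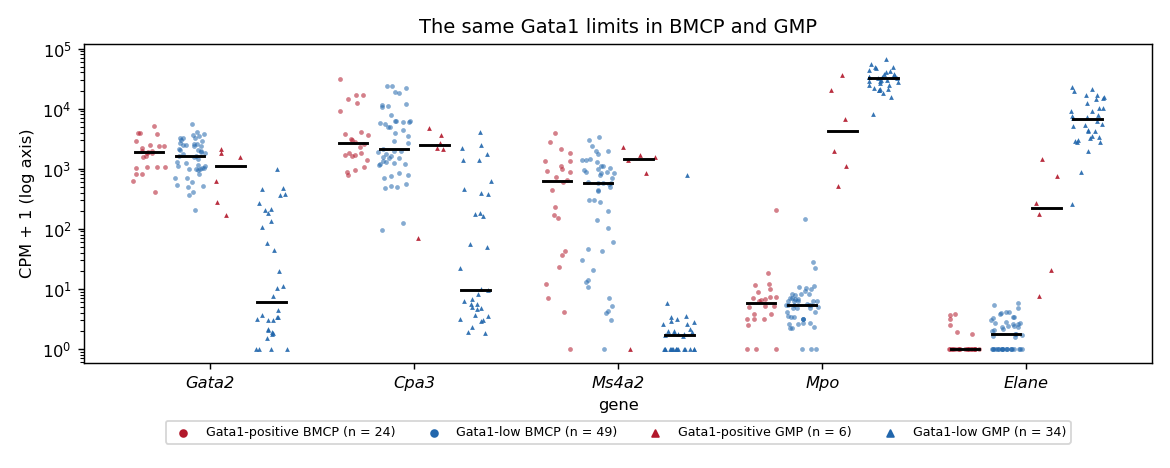
CPM + 1 on a log axis for 5 genes in BMCP (circles) and GMP (triangles) at or over 50 CPM (red) and under 10 CPM (blue) of Gata1, with 1 point per cell and a black bar at the median. The ranges of the BMCP sides overlap, with Cpa3 reaching lower in Gata1-low cells, while in GMP the medians of Gata2 are 1101 and 5.10 CPM.

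The division by Gata1 was also set beside other genes that are high in a part of BMCP only. At least 50 CPM of the IgE receptor gene Fcer1a was found in 4 of 24 Gata1-positive cells (16.7%) and 8 of 49 Gata1-low cells (16.3%). For Fos the shares were 10 of 24 (41.7%) and 20 of 49 (40.8%), and for Car1 8 of 24 (33.3%) and 19 of 49 (38.8%). The Clopper-Pearson limits of the sides overlapped for each of the 8 genes set beside Gata1, namely Car1, Mcpt8, Cma1, Fcer1a, Fos, Spi1, Klf1 and Mki67. Overlap of limits is no test across cells and does not show equal shares.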

How the data were processed

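Per the labels' protocols, RNA of each sorted cell went through 23 cycles of PCR, with ERCC RNA as spike-in, and was read over 50 bases from one end. The authors deposited raw read counts for each gene in each cell, without molecular identifiers. The submitters' processing notes name GSNAP 2015-09-29, HTSeq 0.5.3p3 and mm10, while their annotation is not given in the sources consulted. Symbols and coordinates are from GENCODE vM21. Strand was not marked, so reads of overlapping genes on opposite strands cannot be told apart.

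Kept cells had 50000 or more nuclear-encoded counts, up to 10% mitochondrial reads and up to 50% spike-in reads. CPM are per 1000000 nuclear-encoded counts. Rows that name no gene stayed out of all totals: the median share of unaligned reads was 30.7% in Gata1-positive and 28.4% in Gata1-low cells. Counts were summed per side, and genes with a mean of 5 CPM over the sides were compared as log2 of CPM plus a pseudocount of 1. Called means at least 2-fold, since each side is 1 sample and no test was possible. Shares of cells at 10 reads used cells thinned to 200000 reads, which kept 23 Gata1-positive and 48 Gata1-low cells. No doublet caller was run on these singly sorted cells, and no 2 cells had identical counts.

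Every member of 24 gene lists could be named, together with 15 genes per direction by the rule of size given in the report. A gene that met this rule is not reported here. The members of the comparison and the lists were chosen with earlier results of these data known. The steps were tested on simulated data. Alternatives changed the weight of cells, depth, scaling, pseudocount, filter, Gata1 limits and cells. The work used pandas 2.3.3 and numpy 2.4.6 under Python 3.11.15, with scipy 1.17.1 for limits, matplotlib 3.10.9 for plots and edgeR 4.0.16 for TMM factors only.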

Additional observations from a re-analysis of the deposited data

How the results depend on the processing

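The count of genes at least 2-fold higher in Gata1-positive BMCP, 1793, became 1069 with a filter at 20 CPM, 1156 without each gene's highest cell per side, 5 over widely detected genes of both sides together, 47 over those of either side and 12 by the mean of the sides' shares, limits added after seeing the data. The count of lower genes, 2093, became 1128 with a filter at 20 CPM, 3293 with no filter, and 6, 30 and 4 over widely detected genes in the same order. Without each gene's highest cell the share of higher genes among the called was 33.8% in place of 46.1%. The other 30 such values stayed within 1.5 times, including those under TMM scaling, under spike-in scaling (2526 higher and 1573 lower) and with other Gata1 limits. Of 24 list medians, 19 changed sign under at least 1 alternative, 10 of them with spike-in scaling, 8 among numbers 1 to 47 and 4 among numbers 48 to 94. Monocyte and dendritic cell genes went from 0.87 to -2.96 among numbers 1 to 47. Of 88 gene ratios, 29 changed sign under at least 1 alternative. Where the value was past 2-fold, the sign changed for eosinophil genes (-0.17 with no filter), Aqp1 (-0.13 without the highest cells), Lmo2 (-0.26), Cebpa (-1.17) and Mcpt8 (0.54) among numbers 48 to 94, Gp1ba (-3.05) among numbers 1 to 47, and Samd14 (-3.48 among numbers 1 to 47 and -0.61 without the highest cells). The cause was not tested.

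No paired analysis was possible because the numbers in the labels name single cells and the sides are cells of 1 population. Depth limits what a cell without a read shows: 3 counts amount to 0.138 CPM over the Gata1-positive and 0.0675 CPM over the Gata1-low cells. No label links a cell to its mouse, so differences between mice and between sides cannot be told apart. A transcript level at 1 moment does not give the GATA1 protein of the cell, which was not measured.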
